A study of Rattus norvegicus with 9 samples.

Results

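The genes described are the matrix metalloproteinases (Mmp), the membrane-bound ADAM proteins (Adam), the secreted ADAMTS proteins (Adamts) and the tissue inhibitors Timp2, Timp3 and Timp4 in rat liver. They were taken by symbol alone: every protein-coding gene named Mmp, Adam or Adamts with a number, and the 3 inhibitors, with Mmp12 left out. A gene was represented by the array feature (a transcript cluster, the set of probes of 1 transcript) that carried only its symbol and was brightest over the 9 arrays. This gave 68 genes of 19137 protein-coding genes with a cluster of their own, namely 20 Mmp, 27 Adam, 18 Adamts and 3 Timp genes. Adamts13 had only a cluster shared with a second symbol and has no value here.

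Metalloproteinases of the MMP family cut collagens, basement membrane and other matrix proteins, and most are made as inactive precursors that other proteases activate. ADAM proteins sit in the cell membrane and release the outer parts of other membrane proteins, among them receptors, growth factor precursors and adhesion proteins, a step called shedding. ADAMTS proteins are secreted and process procollagens and proteoglycans, and the TIMPs block many of these enzymes to different degrees. In liver, stellate cells, macrophages and endothelium are known as main sources of matrix proteases and of TIMPs, and the balance between them is a standard subject in fibrosis.

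Liver RNA of male Wistar rats, obtained as young animals, was compared in 3 groups. T2D treated rats were made diabetic with a high-fat diet plus a low dose of streptozotocin, a toxin of the insulin-producing cells, and then received by gavage each day for 7 days 28 mg/kg gamma conglutin (Cγ), a lupin seed protein, with 20 mg/kg lupanine, a lupin alkaloid, in saline. T2D control rats had the same diet and toxin and were given saline by gavage, and healthy control rats were not made diabetic and were given saline. Each group had 3 pools (treated pools 1 to 3, T2D control pools 4 to 6, healthy pools 7 to 9), and each pool mixed the RNA of 3 rats. The series compares the diabetic with the healthy liver and asks whether the combination changes the diabetic one.

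The values are log2 signals, so that a difference of 1 is a 2-fold change. Whether the pools of a group are biological or technical replicates is worded differently in labels and methods, and p-values here measure the spread between pools. According to the labels healthy livers were lysed in Buffer RLT and T2D livers in Trizol, so that disease and lysis reagent cannot be told apart in any comparison with healthy livers. The 23 background probes averaged 2.89 in treated, 2.82 in T2D control and 3.52 in healthy arrays, higher in every healthy array than in any T2D array. The part of the lysis reagent and of this background in the results was not tested. Of the 68 genes 52 (76.5%) had a mean signal under 5 over the arrays and 22 under 3, against 57.8% of all protein-coding genes under 5. The healthy mean of 29 of the 68 genes lay under the healthy background mean.

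Sequences before the transcription start are shown for genes that the results turn on. In the RefSeq promoter table (assembly GRCr8) 43 of the 68 genes had an entry, which gives 250 bases before the start. The letters TGAGTCA, to which AP-1 (Fos and Jun) binds, TATAAA, the TATA box, and GGGCGG, the GC box, were searched on both strands. TGAGTCA was found in 6 of 43 genes (14%), against 3.62% of the 15888 protein-coding genes on the array that had an entry, TATAAA in 14 (32.6%) against 11.3%, and GGGCGG in 21 (48.8%) against 45%, a share near that of all these genes. A match describes letters and is no measured site.

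Of the 6 genes with TGAGTCA 5 are Mmp genes of 1 cluster on chromosome 8, where 8 of the set lie in the order Mmp13, Mmp3, Mmp1, Mmp10, Mmp8, Mmp27, Mmp20 and Mmp7. The other is Adam19. In the 5, the first base of TGAGTCA lay 61 to 84 bases before the start and that of the nearest TATAAA 32 to 47 bases before it. Shown are the 100 bases before the start, on the plus strand, at chr8:13132943-13133042 (Mmp7), chr8:12782729-12782828 (Mmp13), chr8:12925181-12925280 (Mmp3), chr8:12943353-12943452 (Mmp1), chr8:12974607-12974706 (Mmp10) and chr8:13008790-13008889 (Mmp8), because the same motif pair stands before a gene that was higher in T2D livers and before 4 that stayed at background. Capitals mark both motifs, TGACTCA being TGAGTCA read from the other strand and TTTATA likewise TATAAA. Mmp8 has the TATA motif and no TGAGTCA. Positions are counted from the start in the promoter table. For Mmp3 and Mmp8 the RefSeq gene record begins earlier, at 12925267 and 13008873, within the window shown.
Mmp7: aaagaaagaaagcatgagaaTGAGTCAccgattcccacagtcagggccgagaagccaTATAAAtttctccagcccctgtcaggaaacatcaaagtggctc
Mmp13: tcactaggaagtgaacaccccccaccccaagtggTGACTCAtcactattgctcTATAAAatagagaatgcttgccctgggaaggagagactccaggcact
Mmp3: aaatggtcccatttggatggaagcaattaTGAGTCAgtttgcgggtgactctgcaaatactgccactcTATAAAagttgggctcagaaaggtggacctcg
Mmp1: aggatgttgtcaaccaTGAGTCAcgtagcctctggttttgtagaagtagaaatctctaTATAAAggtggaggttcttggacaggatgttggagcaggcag
Mmp10: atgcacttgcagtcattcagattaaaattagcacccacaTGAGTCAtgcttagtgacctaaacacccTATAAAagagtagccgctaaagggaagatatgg
Mmp8: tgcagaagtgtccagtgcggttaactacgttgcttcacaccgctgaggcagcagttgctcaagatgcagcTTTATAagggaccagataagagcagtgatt

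For Timp3 and Adam10, both higher in T2D livers, the same search gave other matches. Only exact letters were searched, so a variant of the TATA box would be missed. The 250 bases before Timp3 (chr7:19459559-19459808, minus strand) and Adam10 (chr8:80226612-80226861, plus strand) are shown with GGGCGG, or its other strand CCGCCC, in capitals. They hold 3 and 2 GC boxes, 69.6% and 74.4% G and C, and no match to the other motifs. Adam17 and Timp2 each have 1 GC box and neither of the other motifs.
Timp3: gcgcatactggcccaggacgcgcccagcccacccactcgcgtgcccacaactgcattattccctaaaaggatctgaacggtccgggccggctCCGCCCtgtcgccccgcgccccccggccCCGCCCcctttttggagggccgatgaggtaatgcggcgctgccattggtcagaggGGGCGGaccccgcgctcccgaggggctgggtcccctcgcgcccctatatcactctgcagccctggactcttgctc
Adam10: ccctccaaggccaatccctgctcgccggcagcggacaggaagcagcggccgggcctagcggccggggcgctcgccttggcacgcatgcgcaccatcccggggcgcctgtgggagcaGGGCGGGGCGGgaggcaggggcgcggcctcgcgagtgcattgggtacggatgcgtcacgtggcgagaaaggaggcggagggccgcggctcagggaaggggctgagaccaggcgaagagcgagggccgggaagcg

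Compared with healthy control livers, T2D control livers had more RNA of the broadly expressed sheddases Adam9, Adam10 and Adam17. Also higher were the gelatinase Mmp2, its membrane-bound activator Mmp14, the matrilysin Mmp7 and the inhibitors Timp2 and Timp3. Of the 68 genes 14 rose and 14 fell at an adjusted p under 0.05 (limma, Benjamini-Hochberg over 68842 clusters). That is 41.2% of the set, against a background of 35% of all clusters and 42.2% of protein-coding genes, so the count itself is no result about these genes. At the threshold of the study (unadjusted p under 0.05 and over 2-fold) 4 genes passed, against 4.14% of all clusters. The median difference was -0.09 for the set, -0.12 for all clusters and -0.09 for protein-coding genes.

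The direction differed with the signal. Of the 16 genes with a mean signal of at least 5, 8 rose (50%) and 2 fell (12.5%), against 31.8% and 24% of the protein-coding genes as bright, and their median difference was 0.44 against 0.04. Of the 52 dimmer genes 6 rose (11.5%) and 12 fell (23.1%), against 5.41% and 26.9%, and their median difference was -0.12 against -0.14. The mean signal includes the T2D arrays, so a gene high in T2D livers enters the bright group more easily. Timp3, with a mean of 4.93 in healthy livers, entered it through its T2D signals. The protein-coding genes set beside these were divided by the same mean, so the limit is not independent of the direction. The split of 14 higher and 14 lower became 16 and 6 after quantile normalization and 18 and 3 after median centring, which moves the median of all clusters by 0.12.

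**Figure D1:**
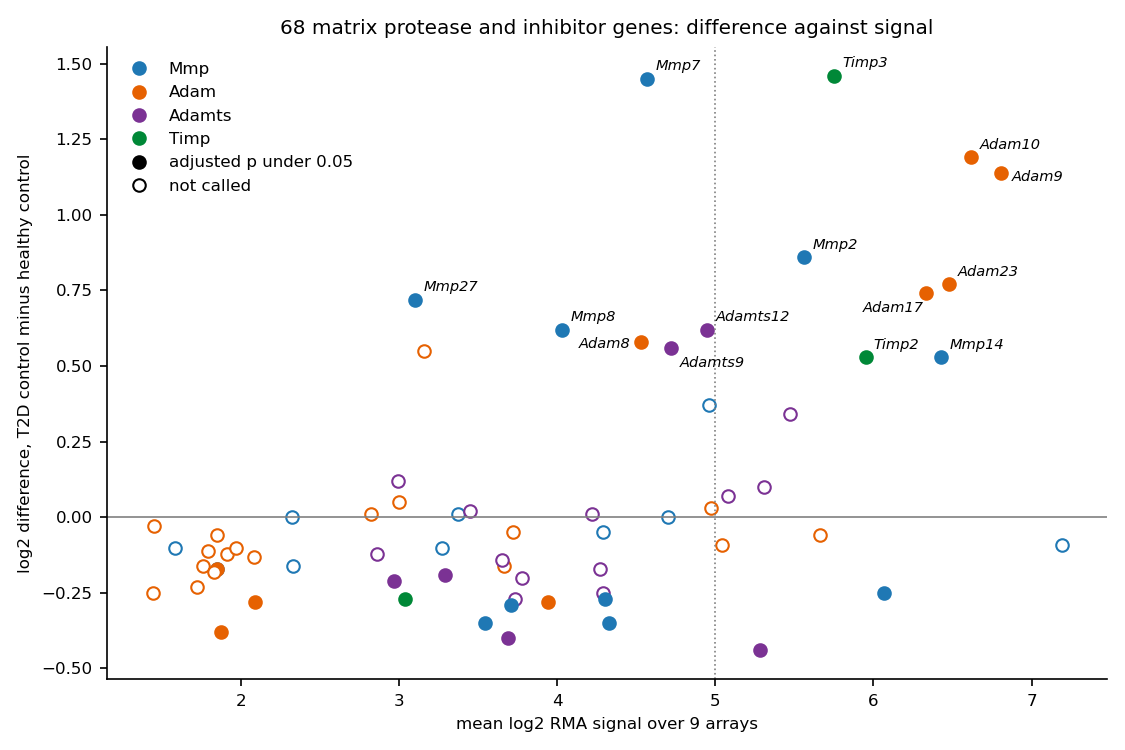
Difference between T2D control and healthy control (vertical axis, log2) against the mean signal over 9 arrays (horizontal axis, log2) for 68 genes, coloured by family, with filled points for an adjusted p under 0.05 and a dotted line at a signal of 5. The 14 higher calls lie between 0.53 and 1.46, and 12 of the 14 lower calls lie left of the dotted line.

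Of 9 ADAM genes grouped as broadly expressed sheddases 4 rose (44.4%) and 1 fell (11.1%). The shares were 16.5% and 25.7% for all protein-coding genes and 31.8% and 24% for those with a signal of at least 5. Adam10, which cuts Notch receptors, cadherins and the amyloid precursor protein, had signals of 6.99, 7.01 and 7.17 in treated pools, 7.10, 6.97 and 6.92 in T2D control pools and 5.94, 5.49 and 5.98 in healthy pools. Every T2D pool lay above every healthy pool, and the T2D groups overlapped. The pools of T2D control and healthy livers did not overlap, in either direction, for 56.4% of protein-coding genes. Separation alone therefore sets no gene apart. The difference between T2D control and healthy was 1.19 (SE 0.129, adjusted p = 0.000466), a 2.28-fold change.

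Adam9, a sheddase of growth factor precursors, had 7.11, 7.14 and 7.18 in treated pools, 7.18, 7.29 and 7.17 in T2D control pools and 6.18, 5.87 and 6.17 in healthy pools. No T2D pool overlapped a healthy one, and T2D control exceeded healthy by 1.14 (SE 0.087, adjusted p = 0.000104). Adam17, the enzyme that releases tumour necrosis factor and ligands of the EGF receptor, had 6.52, 6.88 and 6.93 in treated pools, 6.63, 6.43 and 6.39 in T2D control pools and 5.67, 5.56 and 6.00 in healthy pools. T2D control exceeded healthy by 0.74 (SE 0.144, adjusted p = 0.0060), again with no overlap. Adam8, a sheddase of white blood cells, had 4.77, 4.43 and 4.51 in treated pools, 4.66, 5.23 and 4.51 in T2D control pools and 4.18, 4.27 and 4.20 in healthy pools, a difference of 0.58 (adjusted p = 0.0327) with pool 5 highest. The call was lost without T2D control pool 4, treated pool 3 or any 1 healthy pool, with array weights and in a fit of these groups alone, and the difference ran from 0.37 to 0.73 over all settings.

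Of the remaining 5 genes in this group, Adam33 fell by 0.28 at a signal under 5, a call lost under both rescalings, and Adam12, Adam15, Adam19 and Adam28 did not pass, with differences from -0.06 to 0.03. Adam23, a neural ADAM without protease activity that binds LGI proteins, had 6.84, 6.65 and 6.83 in treated pools, 6.86, 6.65 and 6.66 in T2D control pools and 5.86, 5.73 and 6.26 in healthy pools. It rose by 0.77 (SE 0.135, adjusted p = 0.00372) although the related Adam11 and Adam22 did not pass. The 15 ADAM genes known from testis and epididymis had mean signals of 1.44 to 3.16, and of these Adam2, which is known from fertilization, Adam18 and Adam34 fell, by 0.28, 0.17 and 0.38. All 3 calls were lost under both rescalings.

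Of the inhibitors, Timp3, which binds to the matrix and inhibits Adam17 as well as MMPs, showed with Mmp7 the widest difference of the set. Its signals were 5.80, 6.15 and 5.89 in treated pools, 6.11, 6.84 and 6.22 in T2D control pools and 5.03, 5.02 and 4.75 in healthy pools. T2D control exceeded healthy by 1.46 (SE 0.189, adjusted p = 0.00104), 2.74-fold, with pool 5 the highest of all 9. Leaving out single pools and changing the settings gave differences of 1.23 to 1.60, all called.

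Timp2, which inhibits MMPs and also links Mmp2 to Mmp14 at the cell surface, had 6.21, 5.80 and 6.06 in treated pools, 6.26, 6.23 and 6.06 in T2D control pools and 5.87, 5.56 and 5.52 in healthy pools. The T2D control pools lay above the healthy ones (0.53, SE 0.128, adjusted p = 0.0138), while treated pool 2 fell among them. Array weights ended this call (0.38, adjusted p = 0.0587). Timp4, known mainly from heart, had 2.96, 2.95 and 2.90 in treated pools, 2.95, 2.96 and 2.95 in T2D control pools and 3.31, 3.33 and 3.04 in healthy pools. This fall of 0.27 (adjusted p = 0.0313) lies at the level of the background probes, which were also brighter in healthy arrays, and it was lost under both rescalings.

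**Figure D2:**
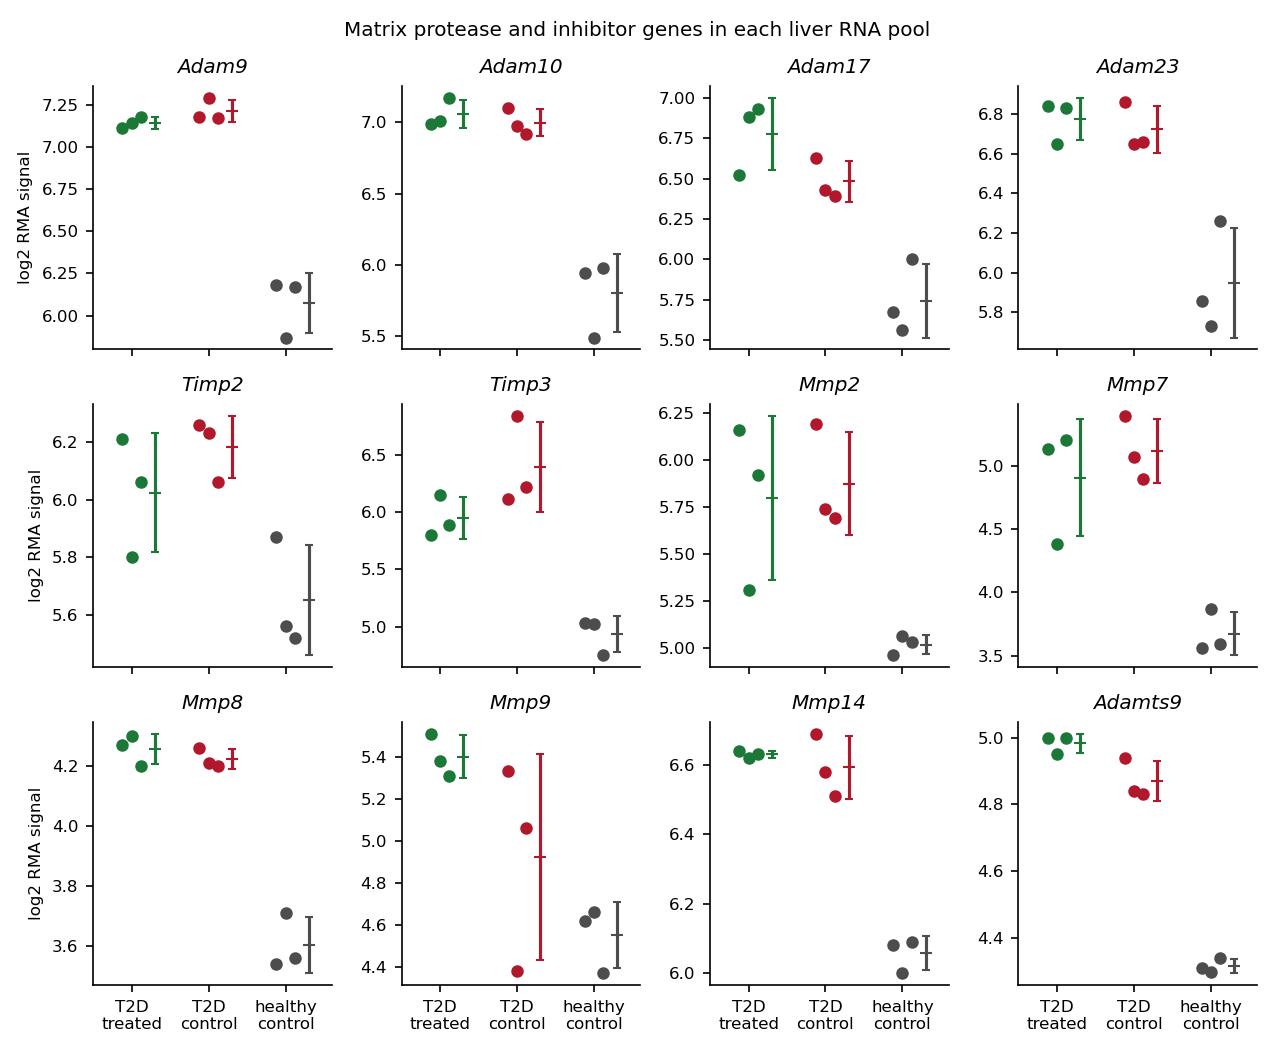
Signal (log2, vertical axes, scaled for each gene) of 12 genes in each pool of T2D treated, T2D control and healthy control livers, with points for pools and bars for mean and SD (n = 3). In 10 of the 12 panels every T2D pool lies above every healthy pool, the exceptions being Timp2, where treated pool 2 (5.80) lies below healthy pool 7 (5.87), and Mmp9, where T2D control pool 5 (4.38) lies among the healthy pools. The genes were chosen for display. Of all protein-coding genes 56.4% had pools without overlap, in either direction, in T2D control against healthy control, and 57.2% in T2D treated against healthy control.

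Among gelatinases, which cut denatured and basement membrane collagen, Mmp2 had 6.16, 5.31 and 5.92 in treated pools, 6.19, 5.74 and 5.69 in T2D control pools and 4.96, 5.06 and 5.03 in healthy pools. The healthy pools were tight and lay below all T2D pools, and T2D control exceeded healthy by 0.86 (SE 0.211, adjusted p = 0.0155). Without T2D control pool 4 the difference was 0.70 and did not pass (adjusted p = 0.0529). Mmp9, a gelatinase of macrophages and neutrophils, had 5.51, 5.38 and 5.31 in treated pools, 5.33, 4.38 and 5.06 in T2D control pools and 4.62, 4.66 and 4.37 in healthy pools. T2D control differed from healthy by 0.37 (adjusted p = 0.196), and without pool 5, which lay among the healthy pools, by 0.64 (adjusted p = 0.0122).

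Of the membrane-type MMPs, Mmp14, which activates the precursor of Mmp2 and cuts collagen at the cell surface, had 6.64, 6.62 and 6.63 in treated pools, 6.69, 6.58 and 6.51 in T2D control pools and 6.08, 6.00 and 6.09 in healthy pools. It rose by 0.53 (SE 0.0606, adjusted p = 0.000582), and the spread within groups was small. The other membrane-type genes went the other way or stayed: Mmp15, Mmp17 and Mmp24 fell by 0.25, 0.27 and 0.35, and Mmp16 differed by 0.01. Of these only Mmp24 kept its call under both rescalings of the arrays.

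In the chromosome 8 cluster 3 genes rose and 5 did not pass. Mmp7, a small matrilysin that lacks the hemopexin domain and is known from epithelia, had 5.14, 4.38 and 5.21 in treated pools, 5.40, 5.07 and 4.90 in T2D control pools and 3.56, 3.87 and 3.59 in healthy pools. All T2D pools exceeded the healthy ones, and T2D control exceeded healthy by 1.45 (SE 0.225, adjusted p = 0.00225), 2.73-fold. Mmp8, a collagenase known from neutrophils, had 4.27, 4.30 and 4.20 in treated pools, 4.26, 4.21 and 4.20 in T2D control pools and 3.54, 3.71 and 3.56 in healthy pools, a difference of 0.62 (SE 0.0619, adjusted p = 0.000324). The healthy pools of Mmp7 and Mmp8 lay close to the healthy background mean of 3.52. The arrays hardly resolve a healthy level there, so both differences start from about the background.

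Mmp27 had 3.08, 3.38 and 3.09 in treated pools, 3.09, 3.82 and 3.33 in T2D control pools and 2.66, 2.70 and 2.71 in healthy pools. It rose by 0.72 (adjusted p = 0.0122) with pool 5 highest, its healthy pools under the healthy background mean. The collagenases Mmp13 and Mmp1, the stromelysins Mmp3 and Mmp10, which cut proteoglycans and activate other MMPs, and the enamel protease Mmp20 did not pass, with differences of -0.17 to 0.00. Mmp13, the main interstitial collagenase of rodents, had 1.82, 1.82 and 1.78 in treated pools, 1.82, 1.75 and 1.77 in T2D control pools and 1.95, 2.05 and 1.85 in healthy pools, all under the background probes. At such signals these arrays give no level for Mmp13, Mmp1, Mmp3 and Mmp10. A rise out of the background could be called, as for Mmp27. Falls below the background could be called too, as for Adam2, Adam18 and Adam34, but cannot be read as a change of RNA level.

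Of the remaining MMPs, Mmp19 differed by -0.09 (adjusted p = 0.182), Mmp21 fell by 0.35 and Mmp11, a stromelysin by name, fell by 0.29 at a signal under 4. The second Mmp11 cluster, dimmer still, differed by 0.04. The calls of Mmp21 and Mmp11 were lost under both rescalings. Among 7 aggrecanases and versicanases, Adamts9, which cuts versican, rose, with no overlap with healthy pools. It had 5.00, 4.95 and 5.00 in treated pools, 4.94, 4.84 and 4.83 in T2D control pools and 4.31, 4.30 and 4.34 in healthy pools (difference 0.56, SE 0.0529, adjusted p = 0.000263). Adamts1, another versican-cutting enzyme, had 5.37, 5.52 and 5.45 in treated pools, 5.40, 5.82 and 5.72 in T2D control pools and 5.40, 5.08 and 5.45 in healthy pools. It did not pass (0.34, adjusted p = 0.0722), and the groups overlapped.

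The 2 ADAMTS enzymes that cut COMP, a cartilage matrix protein, went opposite ways. Adamts12 rose by 0.62 (SE 0.16, adjusted p = 0.0187), with 5.31, 5.12 and 5.22 in treated pools, 5.23, 5.08 and 5.08 in T2D control pools and 4.74, 4.09 and 4.70 in healthy pools. The Adamts12 call was lost without T2D control pool 4 (difference 0.57, adjusted p = 0.063, limma) and when the 2 groups were fitted alone (adjusted p = 0.0564). Adamts7 had 5.33, 5.25 and 5.25 in treated pools, 5.25, 4.95 and 5.01 in T2D control pools and 5.66, 5.41 and 5.44 in healthy pools, and fell by 0.44 (SE 0.0963, adjusted p = 0.0101), a call that held under every rescaling and model and without any 1 pool. The 3 procollagen N-proteinases Adamts2, Adamts3 and Adamts14, which trim the ends of new collagen, gave 0 calls, with differences from -0.17 to 0.07. Adamts16, Adamts18 and Adamts20 fell by 0.19, 0.40 and 0.21 at signals under 4, of which Adamts18 kept its call under both rescalings.

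Treatment with Cγ and lupanine left no difference in these genes that passed the test. Against T2D control 0 of 68 genes were called, with a background of 0.0668% of all clusters (46 called), and 0 under each alternative tried. At an unadjusted p under 0.05 there was 1, Timp3, against 5.13% of all clusters. The differences ran from -0.45 to 0.48 with a median of 0.00.

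Timp3 was 0.45 lower on average in treated than in T2D control livers (95% interval -0.88 to -0.01, adjusted p = 0.948, limma), and treated pool 2 (6.15) lay above T2D control pool 4 (6.11). Mmp9 differed by 0.48 (interval -0.01 to 0.97, adjusted p = 0.984), with the low T2D control pool 5 in that gap. Adamts7 differed by 0.21 (interval -0.01 to 0.43) and Adam17 by 0.29 (interval -0.03 to 0.62). The pools of the 2 groups did not overlap for 3 genes (2 higher, 1 lower), against 14.3% of all clusters. These were Adamts9 and Adam19, higher in treated livers, and Adam25, lower at a signal under the background probes.

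For other genes the difference was 0.04 for Mmp14 (interval -0.10 to 0.18), 0.03 for Mmp8 (-0.11 to 0.17), -0.07 for Adam9 (-0.27 to 0.13) and 0.06 for Adam10 (-0.23 to 0.36). For Mmp2 and Mmp7 the intervals were -0.56 to 0.40 and -0.73 to 0.30, and treated pool 2 was the lowest T2D pool in both. The sign of these differences turned without that pool, to 0.16 and 0.05.

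**Figure D3:**
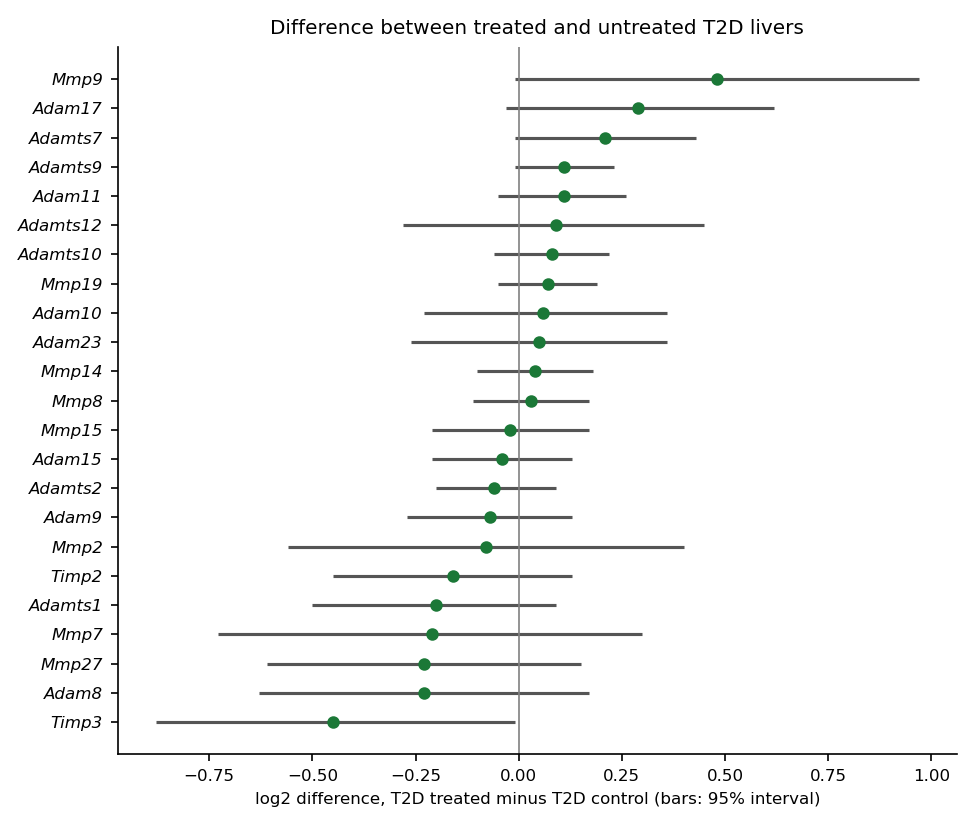
Difference between T2D treated and T2D control (horizontal axis, log2) with its 95% interval for the 16 genes with a mean signal of at least 5 and for Mmp7, Mmp8, Mmp9, Mmp27, Adam8, Adamts9 and Adamts12. Only the interval of Timp3 (-0.88 to -0.01) leaves out 0, and no gene passed after adjustment.

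Treated livers were set against healthy ones as well, a comparison that shares its healthy pools with the one above. In it 13 genes rose and 12 fell (36.8%), against 34.3% of all clusters and 41.6% of protein-coding genes, 5 at the study's threshold against 3.63%, and the split was 17 and 6 after quantile normalization and 19 and 2 after median centring. Called in both T2D groups were 23 genes (11 higher, 12 lower), 5 in T2D control alone and 2 in treated livers alone, which does not show that the T2D groups differ.

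Treated minus healthy differences were 1.25 for Adam10, 1.24 for Mmp7, 1.07 for Adam9, 1.03 for Adam17 and 1.01 for Timp3, with adjusted p of 0.000374, 0.00443, 0.000136, 0.00144 and 0.00503. Mmp2 exceeded healthy by 0.78 (adjusted p = 0.0232) but not without treated pool 1 or 3 or healthy pool 7 or 8, at adjusted p of 0.0548 to 0.0794. Mmp9 exceeded healthy by 0.85 (adjusted p = 0.0173), with all 3 treated pools above all healthy pools, and without treated pool 1 or 2 it did not pass (adjusted p = 0.0564 and 0.0514). Timp2 missed the threshold (0.38, adjusted p = 0.0509) and passed after median centring (0.50, adjusted p = 0.021).

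**Figure D4:**
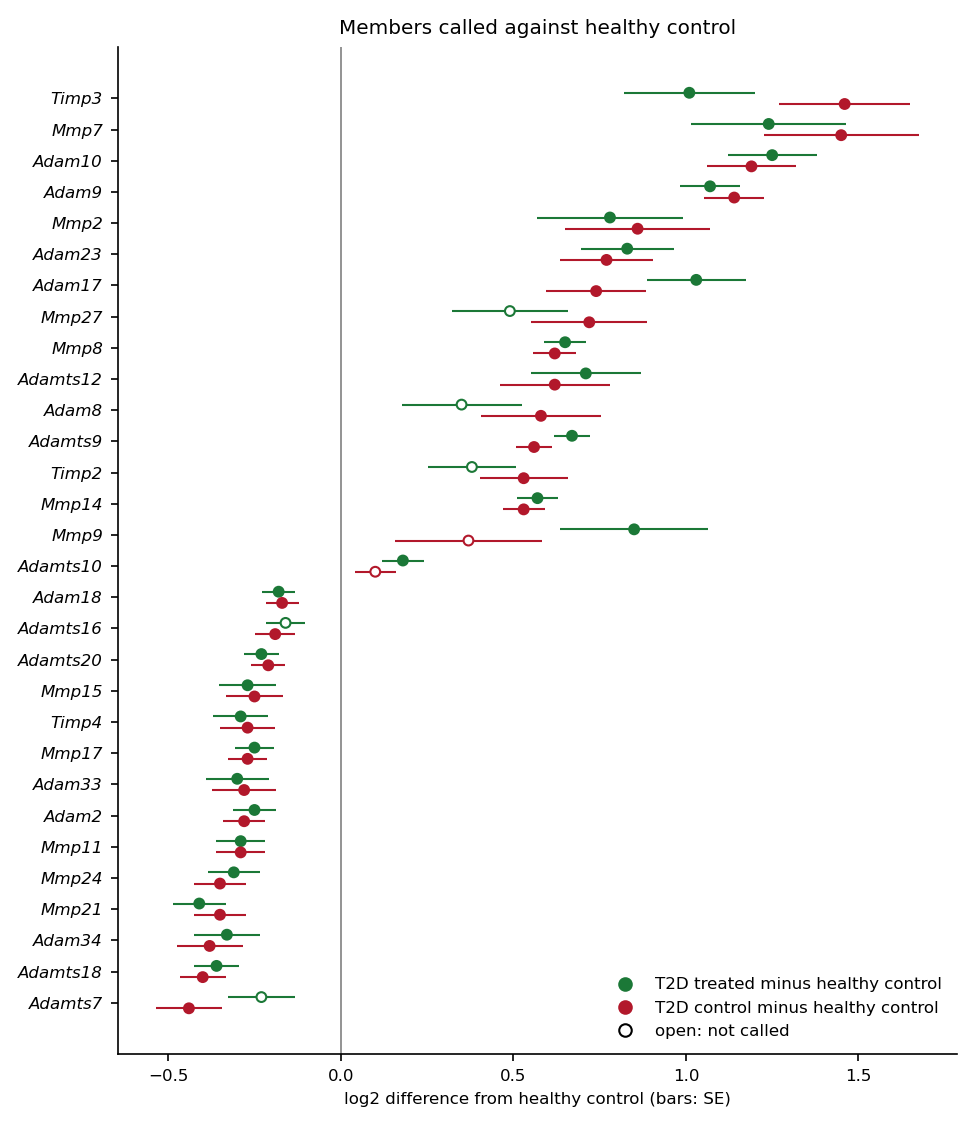
Differences from healthy control (horizontal axis, log2, bars for SE) of the 30 genes called in either T2D group, with T2D treated above T2D control for each gene and open points where the test did not pass. The 2 differences of a gene share healthy pools; they lie on the same side of 0 for each of the 30.

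Genes that work with these proteases were taken from lists. Of 8 measured plasminogen system genes, whose protease plasmin activates MMPs, 4 rose (50%) and 1 fell (12.5%) in T2D control against healthy livers. All but Serpinb2 had a mean signal of at least 5, and of the protein-coding genes as bright 31.8% rose and 24% fell. The urokinase gene Plau rose by 1.27 (SE 0.109, adjusted p = 0.000167), the tissue activator Plat by 0.62, the inhibitor Serpine2 by 0.46 and the urokinase receptor Plaur by 0.40, while Plg, plasminogen itself, fell by 0.18. Of 12 activators and partners, a list of bright and dim genes, 3 rose (25%) and 2 fell (16.7%). Of all protein-coding genes 16.5% rose and 25.7% fell, and of the bright ones 31.8% and 24%. The count is therefore no result about this list. Within it Tspan5, a tetraspanin that escorts Adam10, rose by 0.85 (adjusted p = 0.000885). Rhbdf2, which carries Adam17 to the cell surface, rose by 0.53 (adjusted p = 0.00355), whereas Tspan17 fell by 0.40.

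The other lists hold both bright and dim genes, and are set against 16.5% higher and 25.7% lower for all protein-coding genes and 31.8% and 24% for those with a signal of at least 5. Of 27 proteins known to be cut by ADAM sheddases 11 rose (40.7%) and 3 fell (11.1%), among them Cxcl16 (1.18), App (1.20), Cd44 (1.43) and Nrg1 (1.15). Of 22 basement membrane proteins and glycoproteins 10 rose (45.5%) and 3 fell (13.6%), among them Sparc (1.31), the basement membrane linker Nid1 (1.46) and fibronectin, Fn1 (0.89). Of 13 proteoglycans 5 rose (38.5%) and 2 fell (15.4%), with decorin, Dcn, at 1.80 and biglycan, Bgn, at 1.75. Of 20 other metalloproteases and inhibitors 2 rose and 2 fell. In treated against T2D control livers 0 genes of any of these lists were called.

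The mean signals of the macrophage, stellate cell and endothelial marker lists were also higher in T2D than in healthy livers. Macrophage markers (16) averaged 7.53 to 7.75 in treated, 7.46 to 7.71 in T2D control and 6.02 to 6.20 in healthy pools. In T2D control against healthy livers 12 rose (75%) and 0 fell. Stellate cell and myofibroblast markers (16) averaged 5.96 to 6.28 in treated, 6.17 to 6.30 in T2D control and 5.42 to 5.45 in healthy pools. Of these 12 rose (75%) and 0 fell. Endothelial markers (13) averaged 7.28 to 7.32 in treated, 7.21 to 7.30 in T2D control and 6.49 to 6.75 in healthy pools, with 11 higher (84.6%) and 1 lower (7.69%). Of all protein-coding genes 16.5% rose and 25.7% fell, and of those with a signal of at least 5, 31.8% and 24%.

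Treated pool 2, the lowest T2D pool for Mmp2, Mmp7 and Timp2, was also the lowest T2D pool for stellate markers (5.96) and the highest for macrophage markers (7.75). Other genes did not follow this pool. It was the highest treated pool for Timp3 (6.15) and lay with the other treated pools for Mmp14 (6.62). The mean signal of 10 neutrophil markers was 4.20 to 4.48 in treated, 4.09 to 4.21 in T2D control and 3.71 to 3.92 in healthy pools. Of these 2 rose (20%), Lcn2 by 3.18 (8.07 in T2D control and 4.89 in healthy livers) and Fcnb by 0.68 (adjusted p = 0.0441). The other 8 differed by -0.20 to 0.16 without passing. S100a8 and S100a9, known from neutrophils, averaged 2.44 and 3.61 in T2D control and 2.38 and 3.61 in healthy livers. S100a8 lay under the background means of T2D control (2.82) and healthy (3.52) arrays, where these arrays give no level. S100a9 lay near that background in healthy livers. Of 7 cholangiocyte markers 1 rose (14.3%), Sctr by 1.99, and 1 fell (14.3%). Most neutrophil and cholangiocyte markers had a mean signal under 5, where 5.41% of protein-coding genes rose and 26.9% fell. Of 11 hepatocyte markers 4 rose (36.4%) and 2 fell (18.2%), and their mean signal was 10.48 to 10.82 over all pools. These shares are near those of protein-coding genes with a signal of at least 5 (31.8% and 24%). In whole liver RNA, more cells of a type and more RNA per cell cannot be told apart, and the part of cell composition in the differences of the protease genes was not tested.

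**Figure D5:**
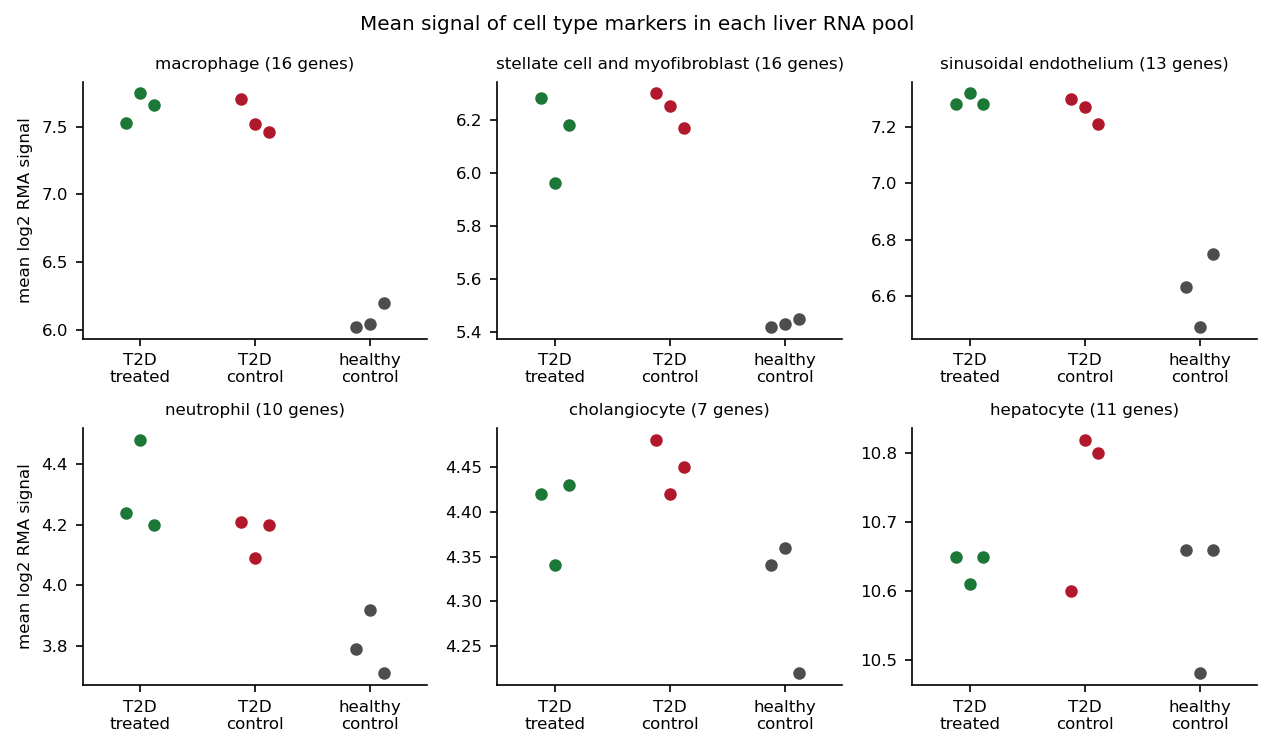
Mean signal (log2, vertical axes) of 6 lists of cell type markers in each pool of T2D treated, T2D control and healthy control livers. The macrophage, stellate cell and endothelial lists lie higher in every T2D pool than in every healthy pool. For stellate cells treated pool 2 is the lowest T2D pool (5.96). The neutrophil mean is also higher in every T2D pool, but only 2 of its 10 markers rose in T2D control against healthy livers. Lcn2 had the widest difference (3.18), and the median difference of the neutrophil list was 0.01.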

How the data were processed

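Liver RNA was hybridised to 9 one-colour Affymetrix rat transcriptome arrays, 3 RNA pools per group. The authors scanned the arrays and made the deposited log2 signals at gene level by RMA (background correction, quantile normalization and probe summary) in Transcriptome Analysis Console 4.0.2. From the 70580 rows 1738 control probe sets were left out, which leaves 68842 clusters, of which 23446 carry 1 symbol of the platform annotation. No column was unused (0), and the deposited values were used as given. Number of arrays limits the precision.

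Groups were compared with limma 3.58.1 (R 4.3.3, lmFit and eBayes) in 1 fit over 9 arrays without covariates, after the eBayes test that the methods name, and p-values were adjusted over all clusters by Benjamini-Hochberg. In simulated data for T2D control against healthy control (68842 clusters, 100 changed at each size) 99% of changes of 1.5 log2 and 100% of 3 log2 were recovered. Among the unchanged clusters there were 10 false calls. Both sizes exceed the largest difference of the set (1.46). Recovery of smaller changes, such as those between the T2D groups, was not simulated. Genes with values in every pool were those called with a difference of at least 1 log2, the 3 with the smallest p for treatment, and a list of liver-relevant genes; Adam8, Adam23, Adamts9, Adamts12, Mmp8 and Mmp27 were added because they were called higher. The genes and lists were chosen with earlier results of these data known. ADAM genes were grouped by textbook role, because a planned grouping by protein motif could not be made. Promoters are from RefSeq, and 25 of the 68 genes are named without one. Alternatives were quantile normalization, median centring, a signal filter, trend and robust eBayes, array weights, fits on 2 groups or on single-symbol clusters, averaging the clusters of a gene, the study's threshold, and leaving out each pool.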

Additional observations from a re-analysis of the deposited data

How the results depend on the processing

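The number of genes called in T2D control against healthy livers was 28, and between 20 and 33 over the rescalings, variance models, array weights and choices of clusters. It was 10 of 16 when the fit held clusters averaging 5 or more on the log2 scale alone and 4 at the study's threshold (unadjusted p under 0.05 and over 2-fold). In T2D treated against healthy livers it was 25, against 10 with that filter and 5 at that threshold. Leaving out each pool in turn gave 21 to 37 calls for T2D control against healthy and 16 to 33 for T2D treated against healthy, lowest without treated replicate 3, and 0 for T2D treated against T2D control. Of the 14 genes higher in T2D control than in healthy livers 11 remained called under each rescaling, variance model, array weights, choice of clusters, the fit of 2 groups and, for those bright enough to enter it, the signal filter, and 10 also without any 1 pool. The study's threshold is not among these settings. Of the 14 lower genes 3 remained under the same settings (Adamts7, Adamts18 and Mmp24), 9 were lost under quantile normalization and 11 under median centring, none with a change of sign, and the cause was not tested. For T2D treated against T2D control, where no gene was called, the sign turned for Mmp14 without T2D control replicate 6 (-0.0019), for Mmp2 without treated replicate 2 (0.16) and without T2D control replicate 4 (0.08), for Mmp7 without treated replicate 2 (0.05) and for Timp4 without treated replicate 3 (0.0017). Over all left-out pools these differences ran from -0.0019 to 0.09 for Mmp14, -0.26 to 0.16 for Mmp2, -0.36 to 0.05 for Mmp7 and -0.03 to 0.0017 for Timp4. The difference of Mmp13 between T2D treated and healthy livers became 0.02 under quantile normalization. Of the 68 genes 29 averaged under the background probes in healthy livers and 17 in T2D control livers, where the arrays resolve no level. No paired analysis was possible because the groups share no replicate numbers.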
